A study of Mus musculus with 18 samples.

Results

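The genes described here are 9 of the JAK-STAT pathway, namely 5 STAT transcription factors (Stat2, Stat3, Stat5a, Stat5b and Stat6) and 4 feedback inhibitors of the SOCS family (Socs1, Socs2, Socs3 and Cish). They were selected by symbol from the 36528 genes counted, with earlier results of these data known. All 9 passed the filter on low counts, which asked for over 10 reads in 4 or more libraries. The cells were mouse RPTECs, renal proximal tubulo-interstitial epithelial cells of the C57BL/6 strain, bought from a vendor and grown in culture. There were 6 groups of 3 samples: vehicle (DMSO), TWEAK at 100 ng/mL, and TWEAK at 100 ng/mL with 3 μM NIK SMI1, each for 6 h and for 24 h. TWEAK is a cytokine of the TNF family, and NIK SMI1 is a small-molecule inhibitor of NIK, the kinase that starts non-canonical NF-κB signalling. No group received NIK SMI1 without TWEAK. The labels give no separate animals or cell lots for the 3 samples of a group, so p-values measure only the spread between these samples, which may be technical.

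Cytokine and interferon receptors carry JAK kinases on their inner side. When a ligand binds, the JAKs phosphorylate STAT proteins, which then move to the nucleus and switch genes on. SOCS genes are among the targets of STATs, and their proteins bind receptors or JAKs and dampen the same signal, which makes them a negative feedback loop. In kidney epithelium this pathway is known for responses to interferons and to cytokines of the interleukin-6 family. STAT activity depends on phosphorylation, which RNASeq does not measure.

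Between 18040966 and 51956444 reads were counted per sample (median 35374254). The cells expressed general markers of renal epithelium, with Krt18 at a median of 4131 CPM (reads per 1000000 reads counted in the library), Cdh1 at 1235 CPM and Pax8 at 39.8 CPM over the 18 libraries. Of the 12 markers of proximal tubule, Slc22a8 and Miox had no read in any library, Slc34a1 and Slc22a6 had at most 1 read, and Hnf4a at most 2. Slc5a2, a glucose transporter of proximal tubule, had a median of 7.13 CPM. The libraries thus had the markers of renal epithelium, while several defining transporters of proximal tubule were at or near 0. Genes of pancreatic islet, such as Ins2 and Iapp, gave low counts that differed between libraries. The summed level of the 12 islet markers was 16.2 to 31.4 CPM in the 9 libraries at 6 h and 15.8 to 21.2 CPM in vehicle at 24 h, but 0.77 to 14.8 CPM with TWEAK at 24 h and 0.32 to 0.55 CPM with TWEAK and NIK SMI1 at 24 h. For 24 h comparisons that include TWEAK alone, fits with the single TWEAK library nearest the other group in these reads are therefore also given. Of the vehicle samples at 6 h, replicate 1 stood apart from replicates 2 and 3 (chi-square per gene 9.24 and 9.95, against at most 5.08 for every other pair of replicates), and calls that changed without it are given beside the results.

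The promoters of the 3 SOCS genes that rose with TWEAK are shown first, because each holds letters of a motif that STAT proteins or interferon-activated factors are known to bind. Sequences are from RefSeq on GRCm38.p6, whereas the counts were made on build 37. They run 5′ to 3′ on the strand of the gene, in lower case, with the motif matches in capitals. In Socs1, 2 matches to the interferon-stimulated element GAAANNGAAA begin 83 and 77 bases before the start site and share 4 letters. In Socs3, 1 match to the STAT motif TTCNNNGAA begins 154 bases before the start site. That Socs3 start site lies inside the RefSeq gene span, which extends upstream to base 117970336, beyond the end of the searched window at 117969616. In Cish, 2 matches to TTCNNNGAA begin at bases 1 and 12 of the transcript.
Socs1, chr16:10785544-10785679, minus strand: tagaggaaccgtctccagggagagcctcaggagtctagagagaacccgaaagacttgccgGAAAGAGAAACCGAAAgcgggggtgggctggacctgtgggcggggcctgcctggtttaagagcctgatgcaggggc
Socs3, chr11:117969452-117969580, minus strand: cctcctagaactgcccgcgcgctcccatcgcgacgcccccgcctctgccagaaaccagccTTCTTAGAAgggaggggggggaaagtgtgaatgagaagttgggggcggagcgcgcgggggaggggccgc
Cish, chr9:107296599-107296683, plus strand: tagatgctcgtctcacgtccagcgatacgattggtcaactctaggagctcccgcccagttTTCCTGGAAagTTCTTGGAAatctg

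Both strands were searched in windows from 250 bases before to 50 bases after each start site. Such windows were available for 8 of the 9 genes, with 2 start sites each for Stat5a and Stat5b, and Socs2 is named only. Of 32851 promoter windows of all genes, 8.3% held TTCNNNGAA and 3.44% held GAAANNGAAA. The STAT motif with a 4-base spacer, TTCNNNNGAA, was found in 6.95% and the NF-κB consensus in 4.51%. Stat2 held 1 interferon-stimulated element and 1 STAT motif with a 4-base spacer, and the second start site of Stat5a held 1 NF-κB consensus. The NF-κB consensus was not found in the windows of Socs1, Socs3 or Cish. None of the 4 motifs was found in the windows of Stat3, Stat5b or Stat6. The windows of Socs3, Stat5a and Stat5b lie wholly inside the RefSeq gene spans, so the 5′ ends of those spans were not searched. A match is a description of letters and not evidence of binding.

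**Figure D1:**
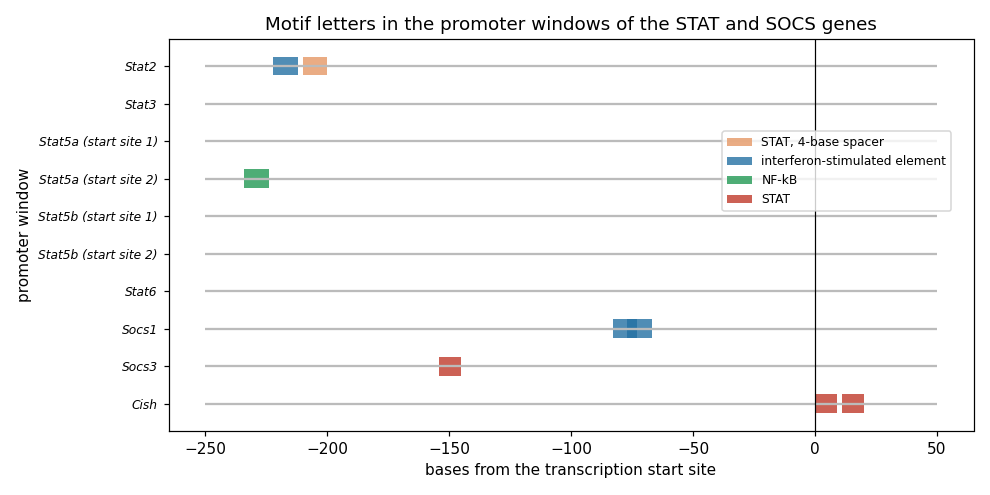
Positions of motif letters in the promoter windows of 8 genes, in bases from the transcription start site (x axis) for each start site (y axis), with bars coloured by motif. The 2 Cish matches lie at the start site, those of Socs1 and Socs3 lie upstream of it, and the windows of Stat3, Stat5b and Stat6 hold none. Start sites drawn for Socs3, Stat5a and Stat5b lie inside the RefSeq gene spans.

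The genes differed widely in level. Per kilobase of exon, the highest mean over the 18 libraries was that of Stat6, the factor of interleukin-4 and interleukin-13 signalling, at 33.1 CPM per kb (range 30.9 to 37.3). Stat3, the main factor downstream of gp130 receptors, followed at 21.4 CPM per kb (19.7 to 22.8). Neither range overlapped a neighbour's. Cish (10.9 CPM per kb) and Socs2 (8.24 CPM per kb) came next, with ranges that overlapped. Socs3 was at 5.92 and Stat5b at 5.30 CPM per kb, and the range of Socs3 (4.30 to 8.39) covered that of Stat5b. Stat2 was at 3.80 and Socs1 at 3.71 CPM per kb, and the range of Socs1 (1.68 to 6.94) covered that of Stat2. Stat5a was lowest at 1.15 CPM per kb (0.82 to 1.40). Only uniquely aligned reads were counted, so reads from sequence shared with another gene can be missing. Of the 50-base words of Stat5a, 8.21% also occur in Stat5b, and 11% of those of Stat5b occur in Stat5a. Of the words of Socs2, 4.58% occur in another gene, mostly the gene model Gm9847. These shares depend on the read length, on which the sources differ.

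TWEAK was followed by higher counts of Socs1, Socs3, Cish and Stat6 at both time points, while no gene of the 9 was called lower by edgeR, DESeq2 or limma. In edgeR, 0 of 9 at 6 h and 1 of 9 at 24 h (Stat5b) were lower at an unadjusted p under 0.05. This was 4 of 9 genes higher at 6 h, against 11.7% of all 15521 tested genes higher and 12% lower. At 24 h the same 4 of 9 genes were higher, against 18.3% of all tested genes higher and 20.7% lower. In cultured samples such as these, fewer cells that express a gene and less RNA per cell cannot be told apart. The median log2 fold change of the 4 SOCS genes was 0.36 at 6 h and 0.60 at 24 h, and that of the 5 STAT genes 0.10 and 0.03, while the median over all tested genes was within 0.01 of 0 at both times.

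Socs1, which binds JAKs directly and restrains interferon signalling, changed most. At 6 h its level was 2.46, 2.25 and 2.68 CPM in the vehicle samples and 6.43, 5.90 and 5.44 CPM with TWEAK. At 24 h it was 2.97, 3.30 and 3.08 CPM in vehicle and 9.30, 9.29 and 8.17 CPM with TWEAK. All TWEAK samples lay above all vehicle samples of their time point. The log2 fold change was 1.27 at 6 h (95% interval 1.01 to 1.53, adjusted p = 7.71e-09) and 1.52 at 24 h (1.26 to 1.79, adjusted p = 1.54e-10), which is 2.41-fold and 2.88-fold.

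Socs3, the inhibitor that docks on gp130 and shuts off interleukin-6 family signals, also rose. At 6 h it was 15.5, 17.7 and 18 CPM in vehicle and 23.8, 22.6 and 26.3 CPM with TWEAK. At 24 h it was 15.8, 16.5 and 16.5 CPM in vehicle and 28.9, 30.3 and 27.0 CPM with TWEAK. The groups did not overlap at either time. The log2 fold change was 0.51 at 6 h (0.38 to 0.64, adjusted p = 2.83e-07) and 0.82 at 24 h (0.69 to 0.96, adjusted p = 6.5e-11).

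Cish, the first described family member and a target of STAT5, was also higher with TWEAK. At 6 h it was 36.4, 36.3 and 38.4 CPM in vehicle and 43.2, 43.5 and 41.6 CPM with TWEAK. At 24 h it was 30.6, 34.0 and 33.4 CPM in vehicle and 40.8, 43.5 and 42.3 CPM with TWEAK. The groups did not overlap. The log2 fold change was 0.22 at 6 h (adjusted p = 0.00301) and 0.38 at 24 h (adjusted p = 4.68e-06). Of the 50-base words of Cish, 9.35% also occur in another gene, mostly the gene models Gm17041 and Gm17040.

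Socs2, which limits growth hormone signalling through STAT5, was not called. It was 82.2, 81.6 and 82.3 CPM in vehicle and 77.8, 78.6 and 77.3 CPM with TWEAK at 6 h, a log2 fold change of -0.06 (-0.14 to 0.01, adjusted p = 0.265). At 24 h it was 64.9, 64.5 and 61.5 CPM in vehicle and 62.9, 68.4 and 69.5 CPM with TWEAK, a log2 fold change of 0.07 (-0.01 to 0.16, adjusted p = 0.139). The groups were apart at 6 h and overlapped at 24 h. Without 24 h TWEAK replicate 1, the lowest of its group, the 24 h value was 0.11 and was called (adjusted p = 0.0308).

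**Figure D2:**
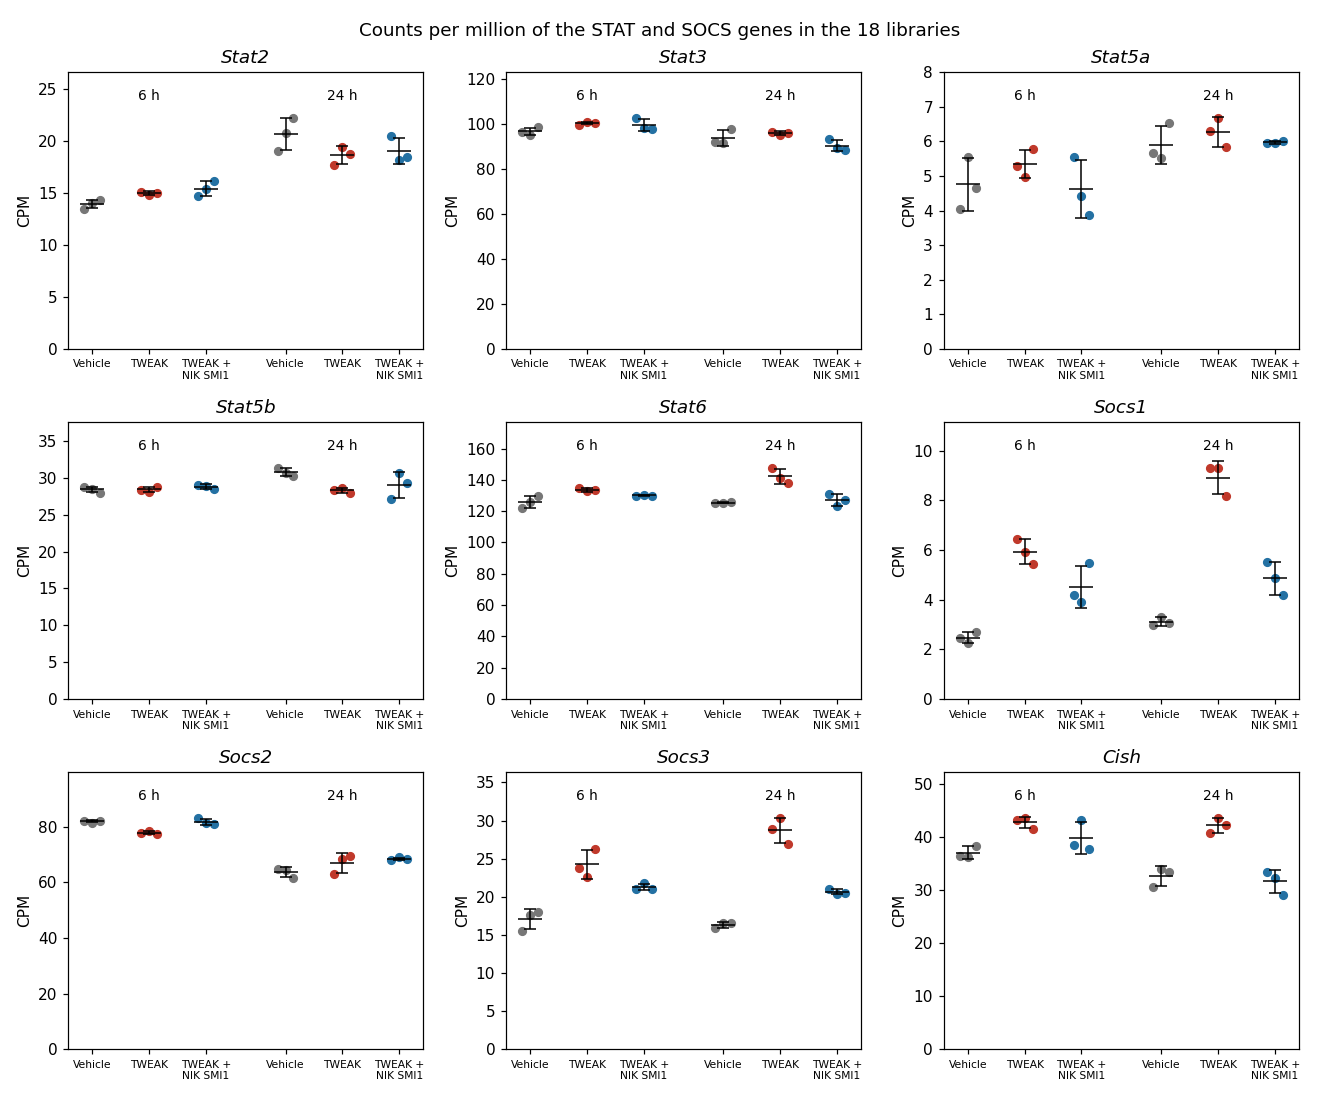
Level of each gene in CPM (y axis, starting at 0) in the 18 libraries, by treatment and time point (x axis); points are libraries, and bars are the mean and SD of 3. Socs1, Socs3 and Cish are higher with TWEAK at both times with no overlap with vehicle, whereas Stat3, Stat5b and Stat6 move little against their level.

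Among the STAT genes only Stat6 was called in the comparison of TWEAK with vehicle. At 6 h it was 122, 126 and 130 CPM in vehicle and 135, 133 and 134 CPM with TWEAK. At 24 h it was 125, 125 and 126 CPM in vehicle and 148, 141 and 138 CPM with TWEAK. The groups did not overlap, and the log2 fold change was 0.10 at 6 h (0.03 to 0.16, adjusted p = 0.0236) and 0.18 at 24 h (0.11 to 0.25, adjusted p = 6.92e-05). The 6 h call was lost without vehicle replicate 1 (adjusted p = 0.0805) or 2 (0.066), or TWEAK replicate 1 (0.0513) or 3 (0.0737). It was also lost with library totals in place of TMM (0.0522) and without the filter on low counts (0.0656). The last bases of Stat6 overlap the gene span of Nab2, and the libraries do not keep strand. Stat6 also overlaps Gm30989, and gene spans likewise overlap for Stat2 (Apof), Stat3 (Gm46295) and Socs2 (Gm33230).

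Stat3 was 96.3, 95.2 and 98.4 CPM in vehicle and 99.6, 101 and 100 CPM with TWEAK at 6 h. Its log2 fold change was 0.07 (-0.01 to 0.14, adjusted p = 0.196). At 24 h its log2 fold change was 0.03 (-0.04 to 0.11, adjusted p = 0.493). Both upper limits lie below the lower limits for Socs1 and Socs3. Stat2, which forms the interferon-responsive complex with Irf9, had log2 fold changes of 0.11 at 6 h (-0.02 to 0.25) and -0.13 at 24 h (-0.27 to 0.00, adjusted p = 0.111). The 24 h value became -0.20 and was called without vehicle replicate 1 (adjusted p = 0.0338). Stat5b, a factor of growth hormone signalling, was 31.3, 30.7 and 30.3 CPM in vehicle and 28.3, 28.7 and 28.0 CPM with TWEAK at 24 h. These groups did not overlap, yet the log2 fold change of -0.12 missed the threshold (adjusted p = 0.0579), and it was called without 24 h NIK SMI1 replicate 1 (0.0383) or 2 (0.0486), which share its estimate of spread. Stat5a, a close paralog that is also downstream of growth hormone and prolactin, had the widest intervals among the STAT genes, with log2 fold changes of 0.17 at 6 h (-0.07 to 0.42) and 0.09 at 24 h (-0.16 to 0.34).

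With NIK SMI1, part of the TWEAK increase of Socs1 was missing at 6 h, and part or all of that of Socs1, Socs3, Cish and Stat6 at 24 h. Against TWEAK alone, 1 of 9 genes was called lower at 6 h (5.7% of all tested genes lower, 5.34% higher) and 4 of 9 lower at 24 h (8.29% lower, 10.2% higher). None was called higher by edgeR, DESeq2 or limma, and in edgeR none was higher at an unadjusted p under 0.05 (0 of 9 at both times). The 4 lower genes at 24 h were Socs1, Socs3, Cish and Stat6, the same 4 that rose with TWEAK. The comparisons with vehicle and with NIK SMI1 share the TWEAK samples, so a high TWEAK sample moves both.

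For Socs1 the samples with TWEAK and NIK SMI1 were at 4.17, 3.91 and 5.49 CPM at 6 h and at 5.53, 4.87 and 4.19 CPM at 24 h. The highest 6 h sample reached into the range of TWEAK alone, and the 24 h samples were all below it. Against TWEAK the log2 fold change was -0.42 at 6 h (-0.68 to -0.16, adjusted p = 0.0271) and -0.86 at 24 h (-1.10 to -0.63, adjusted p = 1.75e-06). The 6 h call was lost when TWEAK replicate 1 (adjusted p = 0.116) or 2 (0.063) or NIK SMI1 replicate 1 (0.139) or 2 (0.164) was left out, and in a fit of the compared groups alone (0.0584). Expressed as a share of the TWEAK increase, 40.4% ± 24.4 (SD, n = 3) was missing at 6 h and 69.9% ± 11.5 (SD, n = 3) at 24 h, where the SD covers only the samples with NIK SMI1.

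For Socs3 the samples with both agents were at 21.1, 21.8 and 21.1 CPM at 6 h and at 21.0, 20.4 and 20.5 CPM at 24 h. These were all between the vehicle and the TWEAK samples. The log2 fold change against TWEAK was -0.19 at 6 h, which missed the threshold (-0.32 to -0.06, adjusted p = 0.0568), and -0.48 at 24 h (-0.61 to -0.35, adjusted p = 1.29e-06). The 6 h value was called without vehicle replicate 1 (-0.19, adjusted p = 0.0408) or TWEAK replicate 2 (-0.24, adjusted p = 0.0239). The share of the TWEAK increase that was missing was 41.0% ± 5.89 (SD, n = 3) at 6 h and 64.9% ± 2.70 (SD, n = 3) at 24 h.

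For Cish the samples with both agents were at 38.5, 43.3 and 37.7 CPM at 6 h and at 33.5, 32.3 and 29.1 CPM at 24 h. At 6 h they spanned most of the distance from vehicle to TWEAK, and at 24 h 2 of them lay within the range of vehicle and 1 below it. The log2 fold change against TWEAK was -0.11 at 6 h (-0.22 to 0.01, adjusted p = 0.257) and -0.42 at 24 h (-0.53 to -0.31, adjusted p = 1.88e-06). Stat6, at 131, 123 and 127 CPM with both agents at 24 h, was likewise lower than with TWEAK alone (log2 fold change -0.17, adjusted p = 0.000371), and it was not called at 6 h (-0.05, adjusted p = 0.432). The intervals for the remaining genes against TWEAK at 24 h were -0.16 to -0.02 for Stat3 (adjusted p = 0.0779), -0.10 to 0.15 for Stat2, -0.32 to 0.16 for Stat5a, -0.07 to 0.13 for Stat5b and -0.05 to 0.10 for Socs2.

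**Figure D3:**
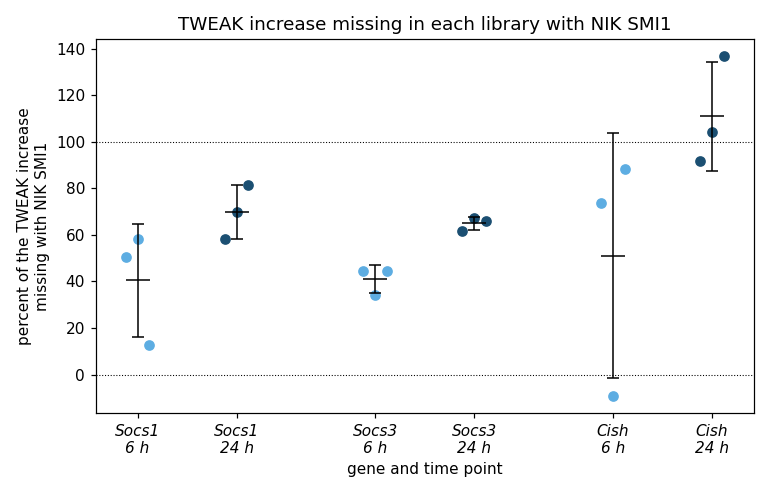
Percent of the mean TWEAK increase over vehicle that was missing in each sample with TWEAK and NIK SMI1 (y axis), for 3 SOCS genes at 6 h and 24 h (x axis); points are samples and bars are the mean and SD of 3. A value of 0 is the mean of TWEAK alone and 100 that of vehicle; the 24 h values of Socs3 lie between 61.9 and 67.1, while those of Cish at 6 h run from -9.20 to 88.4.

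Compared with vehicle, the samples with TWEAK and NIK SMI1 still had higher Socs1 and Socs3, and no other gene of the 9 was called. This was 2 of 9 genes higher at 6 h (7.23% of all tested genes higher, 6.7% lower) and the same 2 of 9 at 24 h (8.07% higher, 9.83% lower). Socs1 was 1.80-fold its vehicle level after 6 h (adjusted p = 8.11e-05, 0.85 on the log2 scale) and 1.58-fold after 24 h (0.66, adjusted p = 0.000658). Socs3 was 1.25-fold at 6 h (0.32, adjusted p = 0.00116) and 1.27-fold at 24 h (0.34, adjusted p = 0.000423). Cish was not called at either time, with intervals of -0.004 to 0.23 at 6 h and -0.16 to 0.08 at 24 h. Stat6 was at 0.05 (-0.01 to 0.12) at 6 h and 0.01 (-0.05 to 0.08) at 24 h. In this comparison at 24 h the groups also differed in islet reads, as given above, and their part in the result was not tested.

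**Figure D4:**
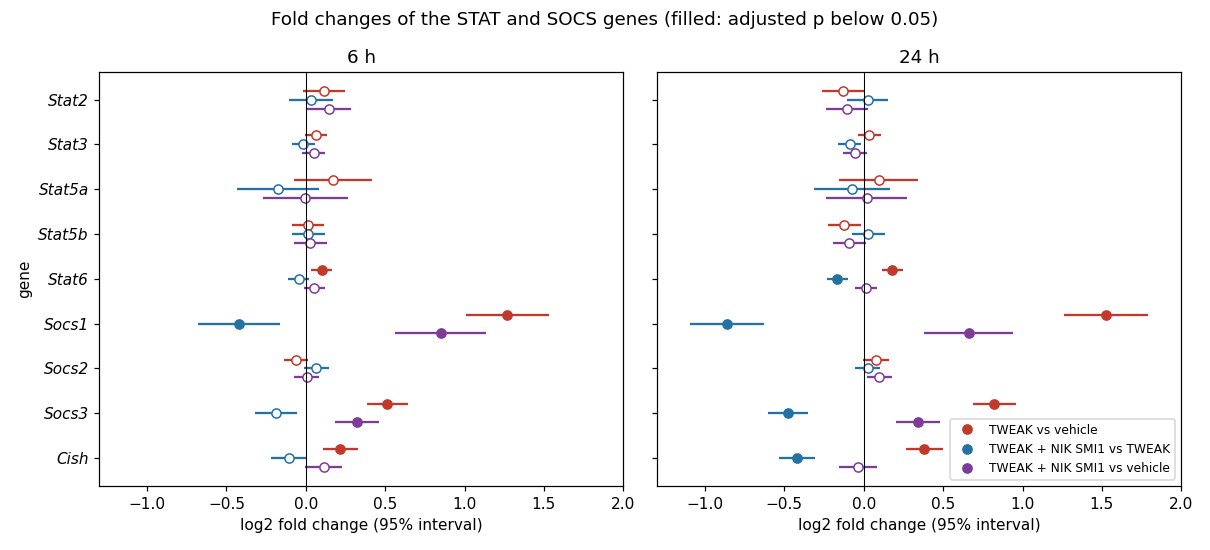
Log2 fold change with its 95% interval (x axis) of the 9 genes (y axis) at 6 h and 24 h for TWEAK against vehicle (red), TWEAK with NIK SMI1 against TWEAK (blue) and TWEAK with NIK SMI1 against vehicle (purple); filled points have an adjusted p below the threshold of 0.05. Socs1, Socs3, Cish and Stat6 are to the right of 0 in red at both times and to the left in blue at 24 h, and only Socs1 and Socs3 are filled in purple.

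The 24 h comparisons were repeated with a single TWEAK library nearest the other group in islet reads, alternatives added after seeing the data. For TWEAK against vehicle this was replicate 1, at 14.8 CPM of islet markers, below the vehicle range of 15.8 to 21.2 CPM. The log2 fold changes were then 1.59 for Socs1, 0.84 for Socs3, 0.33 for Cish and 0.24 for Stat6 (adjusted p between 2e-07 and 0.00555). For TWEAK with NIK SMI1 against TWEAK it was replicate 2, at 0.77 CPM. They were then -0.92, -0.55, -0.45 and -0.15 (adjusted p between 5.06e-05 and 0.0327). In these fits the lone library is assumed to vary like the other groups. The 4 genes thus kept their direction in both comparisons with these libraries. In TWEAK against vehicle the remaining genes were at -0.21 (Stat2), 0.05 (Stat3), 0.10 (Stat5a), -0.12 (Stat5b) and -0.01 (Socs2). In TWEAK with NIK SMI1 against TWEAK they were at -0.02, -0.07, -0.16, 0.02 and 0.004, in the same order.

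The time points were compared with tests of the difference itself. Of the 9 genes, the TWEAK effect was called larger at 24 h than at 6 h for Socs3 (difference of log2 fold changes 0.31, 0.12 to 0.50, adjusted p = 0.0297), against 3.24% of all tested genes higher and 5.67% lower. For Socs1 the difference was 0.26 (-0.12 to 0.63, adjusted p = 0.479). The NIK SMI1 effect was called more negative at 24 h for Cish (-0.31, -0.47 to -0.15, adjusted p = 0.0188), against 1.62% of all tested genes lower and 3.11% higher. For Socs1 it was -0.44 (-0.79 to -0.09, adjusted p = 0.14) and for Socs3 -0.29 (-0.47 to -0.11, adjusted p = 0.0609), and neither was called. The Socs3 value was called without 6 h vehicle replicate 1 (0.0393), 6 h TWEAK replicate 3 (0.0176) or 24 h TWEAK replicate 3 (0.0402). Both called differences were lost when any of several single samples was left out: for Socs3 the adjusted p reached 0.105 without 6 h TWEAK replicate 2, and for Cish 0.0905 without 6 h NIK SMI1 replicate 2.

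Between the time points 4 of the 9 genes differed in vehicle. Stat2 was higher at 24 h than at 6 h (15.5% of all tested genes higher), and Stat3, Socs2 and Cish were lower (14.4% lower). With library totals in place of TMM the split over all tested genes was 23.9% higher and 8.12% lower. Stat2 went from 13.5, 14.0 and 14.3 CPM to 19.1, 20.8 and 22.2 CPM, a log2 fold change of 0.49 (adjusted p = 1.4e-06). Socs2 went from the values given above at 6 h to lower ones at 24 h in every sample (-0.43, adjusted p = 1.3e-09), and Cish fell as well (-0.26, adjusted p = 0.001). The Stat3 difference of -0.11 (adjusted p = 0.017) was lost with library totals in place of TMM (-0.05, adjusted p = 0.339), in a fit of the compared groups alone (0.0543), and without 6 h vehicle replicate 3 (0.0541) or 24 h vehicle replicate 1 (0.085) or 2 (0.0736). The values at 6 h and 24 h come from separate dishes, and time in culture cannot be told apart from any handling that differed between time points.

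The other genes of the pathway were taken from 7 lists with 94 genes, of which 63 had enough reads to be tested. With TWEAK, 22 were higher and 11 lower at 6 h, and 22 were higher and 14 lower at 24 h, against the shares of all tested genes given above for the same comparisons. With NIK SMI1 against TWEAK, 5 were higher and 14 lower at 6 h, and 6 were higher and 17 lower at 24 h. Of all tested genes, 5.34% were higher and 5.7% lower at 6 h, and 10.2% higher and 8.29% lower at 24 h. The medians of the 63 log2 fold changes were 0.11 and 0.05 for TWEAK and -0.08 and -0.07 for NIK SMI1.

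Of the ligands, Csf2, the colony-stimulating factor that signals through Stat5, had the largest rise, 1.74 on the log2 scale at 6 h and 2.26 at 24 h. Against TWEAK alone its log2 fold change with NIK SMI1 was -0.79 and -1.10. Lif, a ligand of gp130 receptors, rose by 0.45 and 0.69, and with NIK SMI1 it changed by -0.14 and -0.35. Clcf1 (-0.51 and -0.54) and Il24 (-0.34 and -0.53) were lower with TWEAK at both times. Csf3, granulocyte colony-stimulating factor, was higher at 6 h (0.29) and lower at 24 h (-0.16), and Il7 was higher at 24 h (0.62). In all, 3 of 12 tested ligands were higher and 2 lower at 6 h (11.7% of all tested genes higher, 12% lower). At 24 h 3 were higher and 3 lower, where 18.3% of all tested genes were higher and 20.7% lower. Most interferon and interleukin genes of this list had too few reads.

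Of the receptors, all 6 tested interferon receptor chains were higher with TWEAK at 6 h (11.7% of all tested genes higher, 12% lower). At 24 h 5 of 6 chains were higher (18.3% of all tested genes higher, 20.7% lower). Ifngr2, the signal-transducing chain of the interferon-γ receptor, had the largest change of these, 1.01 at 6 h and 0.97 at 24 h. Il10rb, shared by interferon-λ and interleukin-10 receptors, rose by 0.34 and 0.21, and Ifnar1 and Ifnar2 of the type I interferon receptor by 0.39 and 0.35 at 24 h. With NIK SMI1, 3 of the 6 were lower at each time, including Ifngr2 at -0.35 and -0.46. Of all tested genes, 5.7% were lower at 6 h and 8.29% at 24 h. The gp130 family was mixed. Osmr, the oncostatin M receptor, rose by 1.94 and 1.5, and Il6st, which encodes gp130 itself, by 0.71 and 0.51, while Cntfr fell by 0.56 and 0.40. With NIK SMI1 all 3 moved the other way, Osmr by -0.78 and -0.53, Il6st by -0.18 and -0.15, and Cntfr by 0.39 and 0.32. Among 8 other tested receptors, 4 were higher at 6 h and 2 at 24 h (11.7% and 18.3% of all tested genes). None was lower by edgeR, DESeq2 or limma (0 also at an unadjusted p under 0.05), against 12% and 20.7% of all tested genes lower. Il4ra, the receptor chain upstream of Stat6, rose by 0.33 and 0.39 and its log2 fold changes under NIK SMI1 were -0.12 and -0.24. Its partner Il13ra1 rose by 0.69 at 6 h and was at 0.13 at 24 h, where it was not called (adjusted p = 0.0747). Il15ra rose by 1.69 and 1.53.

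Of the JAK kinases, Tyk2, which serves type I interferon receptors, rose by 0.67 at 6 h and 0.50 at 24 h. Its log2 fold changes under NIK SMI1 were -0.18 and -0.41. Jak1 was higher at 24 h (0.13) and Jak3 lower (-0.48). Jak2 was at 0.01 and -0.07 and was not called with TWEAK. Under NIK SMI1 at 6 h, 3 of the 4 JAK kinases were lower than with TWEAK alone (5.7% of all tested genes lower). One was Jak2 (-0.14, adjusted p = 0.00723), at 182 CPM in vehicle, 182 CPM with TWEAK and 166 CPM with both agents, and it was also below vehicle (-0.13, adjusted p = 0.0118). Jak1 was at -0.13 (adjusted p = 0.045). Of 14 other negative regulators, 3 were higher and 3 lower at 6 h, and 3 were higher and 4 lower at 24 h, to be read against the same shares of all tested genes. Pias3, an inhibitor of Stat3, was lower by -0.40 and -0.53 with TWEAK and higher with NIK SMI1 by 0.25 and 0.26. The more distant family members Socs5 (-0.22 and -0.16) and Socs7 (0.14 and 0.22) moved in opposite directions with TWEAK, and Socs6 was higher at 6 h (0.15) and lower at 24 h (-0.14).

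Of 13 tested genes that STAT proteins are known to switch on, 3 were higher and 5 lower with TWEAK at 6 h. At 24 h, 5 were higher and 5 lower. Of all tested genes, 11.7% were higher and 12% lower at 6 h, and 18.3% higher and 20.7% lower at 24 h. Myc, a growth regulator, rose by 0.41 and 0.66, and Junb by 0.26 and 0.43. Timp1, an inhibitor of matrix proteases, rose by 0.48 at 24 h. Lcn2, a secreted marker of tubular injury, was at 0.16 at 6 h (adjusted p = 0.0677) and fell by 1.07 at 24 h. Cebpd, an acute-phase transcription factor, was lower at both times (-0.71 and -0.64). Under NIK SMI1 at 6 h edgeR called 0 of the 13, against 5.34% of all tested genes higher and 5.7% lower. In edgeR 2 were higher and 2 lower at an unadjusted p under 0.05, while limma called 0 and DESeq2 called 1 lower. At 24 h 5 were lower (8.29% of all tested genes), among them Bcl3 (-0.44), Timp1 (-0.39) and Bcl6 (-0.35). Ccnd1 (0.13) and Mcl1 (0.12) were higher (10.2% of all tested genes). Several of these genes are also known targets of NF-κB.

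**Figure D5:**
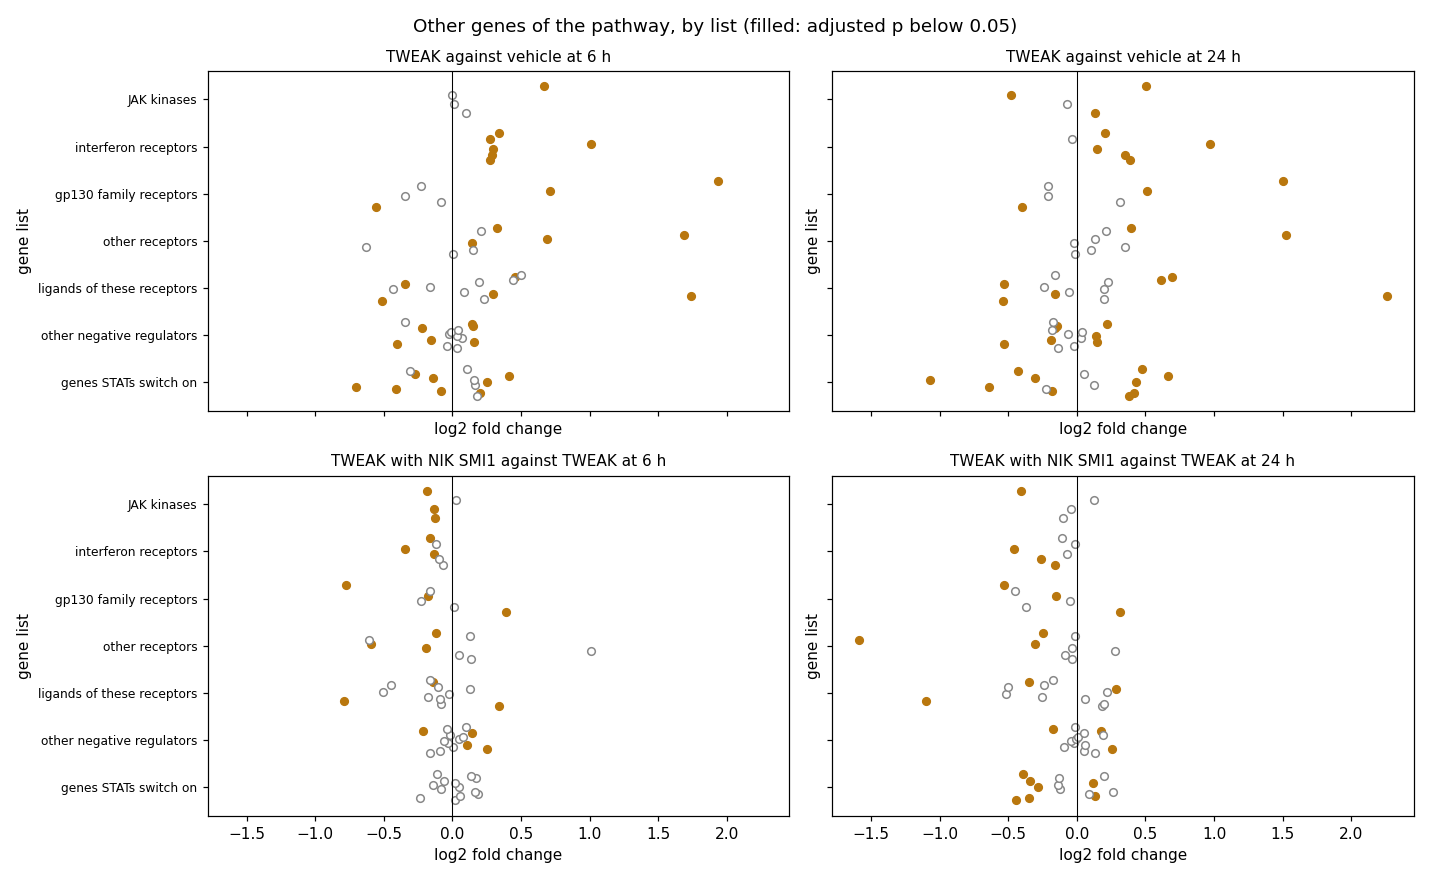
Log2 fold change (x axis) of each of 63 other pathway genes, by gene list (y axis), for TWEAK against vehicle (top) and TWEAK with NIK SMI1 against TWEAK (bottom) at 6 h (left) and 24 h (right); filled points have an adjusted p below the threshold of 0.05. All 6 interferon receptor genes are to the right of 0 at 6 h with TWEAK, and the points of the genes that STATs switch on lie on both sides.

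The genes whose log2 CPM followed the 3 most variable members most closely were found by Pearson's r over the 18 samples among 13166 tested genes with a mean of at least 1 CPM. The samples share their groups, so these r values describe the treatment pattern and carry no test. Socs1 was most like Cxcl10 (r = 0.98), an interferon-inducible chemokine, followed by Sik1 and Ankrd6 (both r = 0.97). Socs3 was most like H2-D1 (r = 0.97), a major histocompatibility class I gene, followed by Pnrc1 and 5031439G07Rik (both r = 0.97). Among the genes most like Stat2 were Col6a1 (r = 0.96) and the gene with Entrez identifier 78605 (r = 0.95).

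The STAT genes lie in 2 groups in the RefSeq annotation. Stat5b, Stat5a and Stat3 are neighbours, with 346 bases between Stat5b and Stat5a and 1636 bases between Stat5a and Stat3 on GRCm38.p6. None of these 3 was called with TWEAK. Stat6 and Stat2 lie on another chromosome, 610 kb apart, and Stat6 was called with TWEAK while Stat2 was not.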

How the data were processed

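RNASeq was analysed from 18 libraries of mouse RPTECs. The authors deposited raw counts of reads that aligned uniquely to the exons of a gene, and the exonic length. Per the labels and the study's methods, unstranded TruSeq v2 libraries were made, and reads were aligned to NCBI build 37 with GSNAP through HTSeqGenie. These sources differ on the sequencer and read length. The submitters' processing notes name DESeq2. The RPKM values in the same files were not used.

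Genes with more than 10 reads in at least 4 samples were tested (15521 of 36528 genes). One model with 6 groups and all 18 samples was fitted with edgeR 4.0.16 in R 4.3.3 (TMM normalization, two-sided quasi-likelihood test), with Benjamini-Hochberg adjustment over all tested genes. A gene was called at adjusted p under 0.05. CPM are counts per 1000000 counted reads of the library. Intervals are 95% intervals of the fit. The same steps were run on simulated counts with known changes in the 6 h TWEAK group only. Those changes were larger than the called 6 h changes of Socs3, Cish and Stat6. The check therefore does not cover changes this small or the other comparisons. Alternatives included DESeq2 1.42.0 and limma 3.58.1. The smallest two-sided p of an exact permutation test of 3 against 3 samples is 0.1, so no such test was used.

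Symbols, promoter windows and start sites came from RefSeq on GRCm38.p6, matched by Entrez identifier (31049 of 36528 genes), and no position was converted between builds. The members, lists and tests were chosen with earlier results of these data known. Named genes were all 9 members, up to 3 called genes per direction and pathway list with the largest change, and the 3 genes most like each of the 3 most variable members, of which 1 is not reported here. The labels give no replicate numbers, and replicate numbers follow accession order and pair no samples. The counts of any 2 replicates differed by more than sampling noise (chi-square per gene 2.19 to 9.95).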

Additional observations from a re-analysis of the deposited data

Results flagged for a closer look

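Each of the following was flagged because an effect differed between the time points by a test of the difference itself. The TWEAK effect on Socs3 was larger at 24 h than at 6 h by 0.31 on the log2 scale (edgeR quasi-likelihood test, adjusted p = 0.0297), with all 3 TWEAK samples above all vehicle samples at both times. The call was lost in 7 of the 18 fits that left out 1 sample, namely without 6 h vehicle replicate 2 (adjusted p = 0.0725) or 3 (0.0869), 6 h TWEAK replicate 1 (0.0772) or 2 (0.105), 24 h vehicle replicate 1 (0.102), or 24 h TWEAK replicate 1 (0.0542) or 2 (0.0997). The effect of NIK SMI1 on Cish was more negative at 24 h, by -0.31 (edgeR, adjusted p = 0.0188), with 3 of 3 samples below every TWEAK sample at 24 h and 2 of 3 at 6 h. Here the call was lost without 6 h NIK SMI1 replicate 2 (adjusted p = 0.0905), 24 h TWEAK replicate 2 (0.0593) or 24 h NIK SMI1 replicate 3 (0.0748).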

How the results depend on the processing

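Of 81 log2 fold changes of the 9 genes followed, 23 were called, 18 of these under each of the 26 to 28 alternatives that could be fitted, and none of the 23 reversed. The 5 called values lost under at least 1 alternative were Stat6 with TWEAK at 6 h, Socs1 with NIK SMI1 at 6 h, Stat3 over time in vehicle, and both differences between time points (Socs3 and Cish). Of the 58 values not called, 8 were called when some single sample was left out, among them the Socs3 vehicle time difference (without 6 h vehicle replicate 1, adjusted p = 0.0458) and the differences of the TWEAK effect between time points for Stat2 (without 24 h vehicle replicate 1, 0.0446) and Socs2 (without 24 h TWEAK replicate 1, 0.0413). The cause was not tested. With the fold cut-offs of the study (2 for TWEAK, 1.5 for NIK SMI1) beside adjusted p, the counts of called genes became 1 for TWEAK at 6 h, 1 at 24 h, 0 for NIK SMI1 against TWEAK at 6 h, 1 at 24 h, and, with 2 applied, 0 for TWEAK with NIK SMI1 against vehicle at 6 h and 0 at 24 h, where Socs1 was 1.80-fold and 1.58-fold. In a fit of the compared groups alone the count for NIK SMI1 at 6 h was 0, and such a fit gives no difference between time points. Leaving out 1 sample gave counts of 0 to 2 for NIK SMI1 at 6 h, 0 to 1 for the TWEAK effect and 0 to 2 for the NIK SMI1 effect at 24 h against 6 h. With the 24 h TWEAK library lowest in islet reads alone, added after seeing the data, the last count was 0 and the Cish difference was -0.35 (adjusted p = 0.0699). With the one nearest vehicle in islet reads alone, also added later, both counts were 0, with Socs3 at 0.32 (adjusted p = 0.118) and Cish at -0.27 (0.21). The planned fit without libraries above 10 CPM of islet markers left out 13 libraries and allowed only NIK SMI1 against TWEAK at 24 h, where the calls were as in all libraries. No scaling moved the median of all genes by more than 0.07 on the log2 scale. No paired analysis was possible because the labels carry no replicate numbers.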
